A study of Homo sapiens with 12 samples.

Results

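The genes described are 7 that encode cell-surface proteins studied as antigens or imaging and therapy targets in prostate cancer: FOLH1, STEAP1, STEAP2, STEAP4, PSCA, CD276 and EPCAM. They were chosen by name, and each was found by its Ensembl ID in the deposited table of 63677 genes. All 7 passed the filter on low counts and were among the 26076 genes tested. RNA was sequenced from LNCaP, an androgen-sensitive human prostate cancer line, in 12 libraries that form 4 groups of 3. One pair of groups expressed a single shRNA against USP22 (USP22 depletion) or a control shRNA (shRNA control), and cells of both had doxycycline at 1 ug/mL, renewed each 48 hours over 5 days. In the other pair, for which the labels list no doxycycline, cells overexpressed USP22 (USP22 overexpression) or carried the pLPLUC vector (vector control). All cells grew in hormone-proficient medium. The labels do not say whether the replicates were separate cultures, so p-values measure the spread between these libraries, which may be technical.

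USP22 is the ubiquitin protease of the SAGA coactivator complex, which acts on histones at promoters of active genes. FOLH1 encodes prostate-specific membrane antigen (PSMA), a membrane-bound glutamate carboxypeptidase that trims folate polyglutamates and N-acetylaspartylglutamate, and its transcription in LNCaP cells is known to be held down by androgen. The STEAP proteins span the membrane with several helices. STEAP2 and STEAP4 reduce iron and copper at the cell surface and in endosomes, whereas STEAP1 lacks the NADPH-binding domain of its relatives. PSCA is a small glycolipid-anchored protein of the Ly6 family, CD276 (B7-H3) is an immunoglobulin-type member of the B7 family of immune regulators, and EPCAM is a homophilic adhesion protein of epithelia whose cytoplasmic tail is released by membrane proteases.

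The libraries held 77607469 to 103690001 counted reads. Counts are given as CPM, reads relative to the library total after TMM scaling. USP22 stood at 257.6 ± 7.38 CPM after depletion and 477.6 ± 3.65 CPM in the shRNA control, and at 1466 ± 52.2 CPM after overexpression and 512.5 ± 45.9 CPM in the vector control (SD, n = 3 each), as the labels say. The luminal markers KRT8 and KRT18 were present in every library, at 233.4 CPM or more and 134.3 CPM or more. The basal markers KRT5 and TP63 had at most 2 reads in any library, but the basal marker KRT14 had 35 to 411. The endothelial marker VWF had 569 to 1424 reads per library, and PECAM1, another endothelial marker, had none. The table also lists 0 reads in all libraries for NCOA4 and CD24, so a 0 in it need not mean that a gene was not expressed. Vector control replicate 3 stood apart: across genes, its log2 values deviated from the average of the other vector control libraries with an SD of 0.59, where replicates 1 and 2 each gave 0.46 in the same measure. Its reads from mitochondrial coding genes were 0.529% of the total, the lowest share of the 12 libraries. Among the vector control libraries it had the lowest value of FOLH1, STEAP1, STEAP2, STEAP4 and EPCAM and the highest value of PSCA and CD276. Values of the 7 genes that it moved most are also given without it.

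The start regions of the STEAP genes show how different the promoters of close relatives in this set are. They are shown because STEAP1, STEAP2 and STEAP4 differed in level and in their values between the control lines. RefSeq sequences (GRCh38.p14, 250 bases before to 50 after a start) were matched by symbol for STEAP1, STEAP2, STEAP4 and CD276. These are 4 of the 7 genes. No sequence was found for FOLH1 and EPCAM, and the start region of PSCA was left out and not examined. Capitals mark motif matches on either strand. The letters GGGCGG were searched as a GC box. The letters TATAAA were searched as a TATA box. The pentamer that gives the CCAAT box its name was searched too, and every motif was searched on both strands.
STEAP1 (chr7:90154219-90154518, plus strand): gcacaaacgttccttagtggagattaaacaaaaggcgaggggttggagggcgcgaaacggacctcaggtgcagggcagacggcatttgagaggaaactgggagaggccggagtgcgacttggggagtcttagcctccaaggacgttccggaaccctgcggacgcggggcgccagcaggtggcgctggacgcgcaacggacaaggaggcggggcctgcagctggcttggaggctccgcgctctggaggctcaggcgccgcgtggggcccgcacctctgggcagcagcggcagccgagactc
STEAP2 first start (chr7:90211490-90211789, plus strand): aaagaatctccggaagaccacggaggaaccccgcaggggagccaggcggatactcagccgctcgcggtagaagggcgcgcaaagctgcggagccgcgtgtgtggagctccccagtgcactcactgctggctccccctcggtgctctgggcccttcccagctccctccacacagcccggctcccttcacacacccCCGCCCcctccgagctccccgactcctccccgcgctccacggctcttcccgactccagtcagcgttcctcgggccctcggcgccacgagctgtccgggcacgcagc
STEAP2 second start (chr7:90213570-90213869, plus strand): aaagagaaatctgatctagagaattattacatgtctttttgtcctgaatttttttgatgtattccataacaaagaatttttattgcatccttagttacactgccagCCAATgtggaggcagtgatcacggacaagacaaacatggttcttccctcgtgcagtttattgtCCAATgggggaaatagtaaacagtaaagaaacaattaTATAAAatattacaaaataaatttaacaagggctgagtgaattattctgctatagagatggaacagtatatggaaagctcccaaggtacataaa
STEAP4 (chr7:88306845-88307144, minus strand): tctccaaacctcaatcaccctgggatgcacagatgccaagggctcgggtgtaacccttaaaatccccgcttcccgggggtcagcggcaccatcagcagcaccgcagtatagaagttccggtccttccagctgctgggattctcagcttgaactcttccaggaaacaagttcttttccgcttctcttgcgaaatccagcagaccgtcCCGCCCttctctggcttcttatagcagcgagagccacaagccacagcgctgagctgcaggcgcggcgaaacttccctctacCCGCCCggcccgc

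STEAP1 and the first start of STEAP2 had a GC content of 66.7% and 70.3%, with 27 and 28 CpG dinucleotides, against a median of 58.7% and 14 CpG over 35116 RefSeq promoters. The first STEAP2 start held 1 GC box and STEAP4 held 2, and the first CD276 start held 7. At least 1 GC box occurs in 45% of the promoters. The second STEAP2 start had a GC content of 33.7%, 2 CCAAT boxes and a TATA box. At least 1 CCAAT box occurs in 34.6% of promoters, and at least 1 TATA box in 11.5%. A match of these letters is a description of the sequence and no evidence that a factor binds there. In RefSeq STEAP1 and STEAP2 are immediate neighbours on chromosome 7, and both are read from the plus strand.

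**Figure D1:**
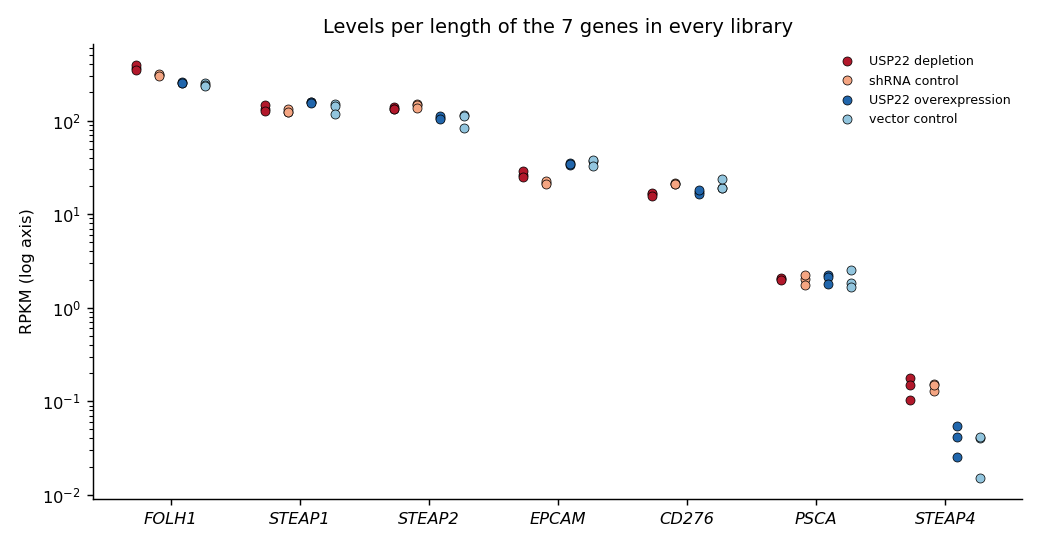
Level per length (RPKM, log axis) of each of the 7 genes in the 12 libraries, with 1 point per library and groups ordered from left to right as in the legend. FOLH1 lies highest at 231.5 to 395.9 RPKM, and STEAP4 lies lowest, below 0.2 RPKM in every library.

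Levels between genes were compared per kilobase of exon (RPKM, with exon lengths from GENCODE 29). FOLH1 was the most abundant of the 7, at 369.4 ± 24.2 RPKM after USP22 depletion, 306.6 ± 5.07 in the shRNA control, 254.4 ± 1.15 after overexpression and 241 ± 10.4 in the vector control (SD, n = 3 each). It ranked 53rd after depletion and 111th in the vector control among the 24874 tested genes with a known length. The order of STEAP1 and STEAP2 depended on the group. STEAP1 had 153.9 to 158.7 RPKM after overexpression and 116.4 to 151.2 in the vector control, above STEAP2 with 103.9 to 111.5 and 82.93 to 114.8 RPKM. In the shRNA control STEAP2 was the higher one, at 136.4 to 150.1 RPKM against 122.3 to 132.6 RPKM for STEAP1, and after depletion their ranges overlapped. EPCAM (20.8 to 38.18 RPKM over all libraries) and CD276 (15.79 to 23.71 RPKM) followed. In the shRNA control these 2 genes lay within 20.79 and 22.67 RPKM and did not differ beyond their spread. PSCA had 1.666 to 2.518 RPKM. STEAP4 had 0.01504 to 0.1753 RPKM, from 12 to 193 reads per library, the fewest of the 7 genes. Relative to its level, its counting error is therefore the largest of the 7.

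**Figure D2:**
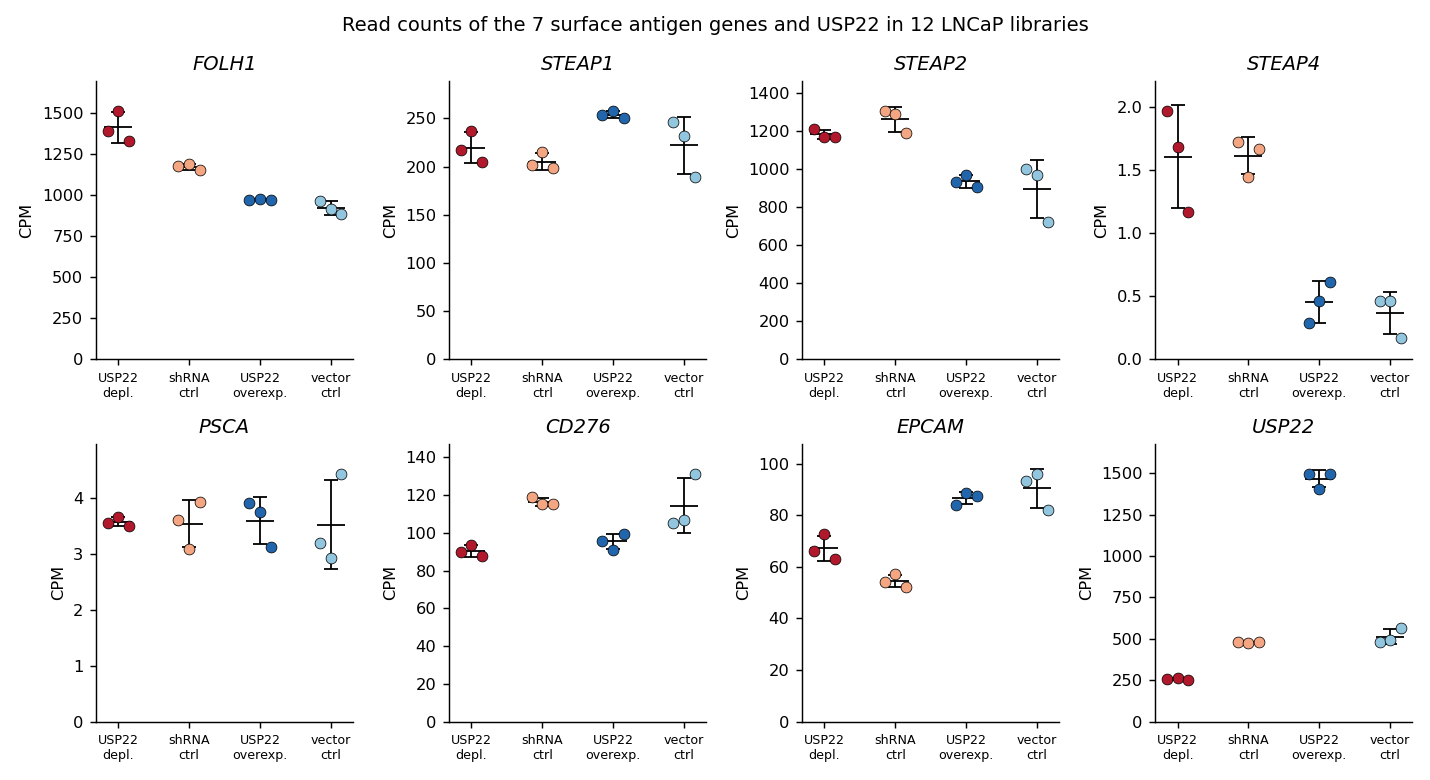
CPM of the 7 genes and of USP22 in each library. Points are libraries in the order of their replicate numbers, bars are the mean ± SD of 3 libraries, and each panel has its own axis from 0. Of the 7 genes, FOLH1, EPCAM and CD276 differ between the shRNA groups without overlap. FOLH1, STEAP2 and STEAP4 lie higher in both shRNA groups than in both other groups without overlap, and EPCAM lies lower.

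The first comparison asked how the antigen genes stood after USP22 depletion, relative to the shRNA control. FOLH1 and EPCAM were higher, CD276 was lower, and the 4 others did not pass the test. Thus 3 of 7 genes were called (edgeR, Benjamini-Hochberg adjusted p under 0.05 over all tested genes), where 19.8% of all tested genes were called. The 2 that rose stand beside 9.4% of tested genes called higher, and the 1 that fell beside 10.4% called lower. The same 3 were the members whose libraries did not overlap between the groups, which held for 20.3% of tested genes on the higher side and 21.5% on the lower side. The median log2 fold change of the 7 was 0.01, and that of all tested genes was 0.00. The called differences were small: none reached 2-fold, as did 3.16% of tested genes.

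FOLH1 had 1391, 1514 and 1332 CPM in the USP22-depleted libraries, against 1178, 1189 and 1151 CPM in the shRNA control. All depleted libraries lay above all control libraries. This is a 1.2-fold rise (log2 fold change 0.27, SE 0.06, edgeR adjusted p = 0.00248, 95% interval of the fold 1.11 to 1.31). FOLH1 carries 62797 to 147129 reads per library, so counting error is a small part of this spread. How the counting treated reads that match both FOLH1 and its near copy FOLH1B is not known, and FOLH1B held 377 to 797 reads per library.

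EPCAM had 66, 72.6 and 62.92 CPM after depletion, against 54.3, 57.1 and 52.39 CPM in the shRNA control. The groups did not overlap, and EPCAM rose 1.23-fold (log2 fold change 0.30, SE 0.07, edgeR adjusted p = 0.00706, interval 1.11 to 1.37). The vector control lay above both, at 81.86 to 96.17 CPM, so the level after depletion stood between those of the 2 control lines. The edgeR adjusted p of EPCAM reached 0.0424 when a library was left out.

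CD276 had 89.96, 93.61 and 87.49 CPM after depletion, against 119, 115.2 and 115.3 CPM in the shRNA control. The ratio to the control was 0.775, a fall with an interval of 0.694 to 0.867. On the log2 scale the change was -0.37 (SE 0.08) and the edgeR adjusted p was 0.00252. The highest depleted library lay well below the lowest control library. The vector control libraries, at 105.1, 106.7 and 131.4 CPM, were also above all depleted ones.

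The 3 STEAP genes and PSCA did not pass the test. STEAP1 had 217.4, 236.5 and 205.1 CPM after depletion and 201.4, 215.5 and 198.7 CPM in the shRNA control (log2 fold change 0.10, SE 0.08, edgeR adjusted p = 0.467). STEAP2 had 1212, 1171 and 1172 CPM after depletion and 1308, 1293 and 1189 CPM in the shRNA control (-0.09, SE 0.09, edgeR adjusted p = 0.549). Both pairs of groups overlapped, and the 95% intervals of the folds, 0.949 to 1.21 for STEAP1 and 0.821 to 1.07 for STEAP2, include a rise of the size seen in FOLH1 for STEAP1 but not for STEAP2, and for STEAP2 they include a fall of that size. PSCA had 3.554, 3.663 and 3.51 CPM after depletion and 3.61, 3.09 and 3.936 CPM in the shRNA control, within 1 range (edgeR adjusted p = 0.972). STEAP4 had 1.971, 1.688 and 1.166 CPM after depletion and 1.724, 1.446 and 1.671 CPM in the shRNA control (edgeR adjusted p = 0.997). At this depth its interval, 0.683 to 1.46 of the control level, is wide.

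Some luminal markers fell in the same comparison. The 5 luminal genes examined summed to 1315 to 1481 CPM after depletion and 2561 to 2633 CPM in the shRNA control, and 2 of the 5 fell, where 10.4% of all tested genes were called lower. KLK3, which encodes prostate-specific antigen, carried most of the sum's difference, at 326.3 ± 34 CPM after depletion and 1428 ± 35 CPM in the shRNA control (SD, n = 3 each, edgeR adjusted p = 1.54e-10). KRT8 was the other that fell (log2 fold change -0.56, edgeR adjusted p = 0.000138). KRT18 (-0.23), HOXB13 (0.07) and FOXA1 (0.08) were not called. The basal list summed to 2.778 to 3.474 CPM after depletion and 3.628 to 4.032 CPM in the shRNA control, the fibroblast list to 13.05 to 17.23 and 16.56 to 17.58 CPM, the endothelial list to 11.97 to 14.76 and 6.704 to 7.769 CPM, and the leukocyte list to 0.2451 to 0.3246 and 0.2099 to 0.2767 CPM. VWF made up nearly all of the endothelial sum. The part of these shifts in the antigen results was not tested. In bulk RNA, fewer cells of a type and less RNA per cell cannot be told apart.

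The second comparison asked the same of USP22 overexpression, relative to the vector control. By edgeR 0 of 7 antigen genes passed, where 4.11% of all tested genes were called, 1.51% higher and 2.6% lower. At an unadjusted p under 0.05 there were 2, CD276 and STEAP1. DESeq2 called 1 (CD276) and limma voom called 0. The libraries of FOLH1 and STEAP1 lay above those of the vector control without overlap, as for 9.64% of tested genes, and those of CD276 lay below, as for 12.8%. The 5 luminal markers summed to 1947 to 2042 CPM after overexpression and 2304 to 2704 CPM in the vector control. Of them edgeR called 1 lower, KLK3, which was also called lower on depletion. KLK3 had 874.2 ± 25.2 CPM after overexpression and 1247 ± 144 CPM in the vector control (SD, n = 3 each). The part of these shifts in the antigen results was not tested. The median log2 fold change of the 7 was 0.06, and that of all tested genes was -0.01.

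CD276 had 95.95, 91.12 and 99.38 CPM after overexpression, against 105.1, 106.7 and 131.4 CPM in the vector control. The groups did not overlap, but the spread of the vector control is set by its replicate 3. A log2 fold change of -0.26 (SE 0.08) missed the threshold (edgeR adjusted p = 0.0678). Without vector control replicate 3 it was -0.15 (adjusted p = 0.0543), and without vector control replicate 1 or 2 it passed (adjusted p = 0.0323 and 0.0418). CD276 thus had a negative log2 fold change with raised and with lowered USP22. The 2 values did not differ detectably, with a difference of 0.11 (edgeR adjusted p = 0.605, 95% interval -0.12 to 0.33), but without vector control replicate 3 the difference was 0.21 and passed (adjusted p = 0.0174).

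STEAP1 had 253.7, 257.9 and 250.1 CPM after overexpression, against 245.8, 231.3 and 189.2 CPM in the vector control. Every overexpression library was higher, but the distance to vector control replicate 1 was small. On the log2 scale STEAP1 differed by 0.19 (SE 0.08, edgeR adjusted p = 0.22), and by 0.09 without vector control replicate 3 (adjusted p = 0.414). STEAP2 had 930.6, 971.3 and 905.2 CPM after overexpression and 1000, 970.4 and 722.7 CPM in the vector control. Its log2 fold change was 0.06 with all libraries (edgeR adjusted p = 0.778) and -0.08 without vector control replicate 3 (adjusted p = 0.425).

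FOLH1 had 970.8, 978.1 and 970.1 CPM after overexpression, against 964.1, 915.1 and 885.1 CPM in the vector control. The groups did not overlap, yet the difference was not called (log2 fold change 0.08, SE 0.06, edgeR adjusted p = 0.478, interval of the fold 0.973 to 1.15), and the value was 0.05 without vector control replicate 3 (adjusted p = 0.665). EPCAM had 84.12, 88.52 and 87.32 CPM after overexpression and 93.13, 96.17 and 81.86 CPM in the vector control (-0.06, SE 0.07, edgeR adjusted p = 0.699). Without vector control replicate 3 the EPCAM value was -0.13 (adjusted p = 0.189). PSCA had 3.908, 3.76 and 3.124 CPM after overexpression and 3.201, 2.937 and 4.44 CPM in the vector control (log2 fold change 0.03, edgeR adjusted p = 0.936). Without vector control replicate 3 the PSCA value was 0.23 (adjusted p = 0.351). For PSCA and EPCAM the groups overlapped, and the highest PSCA value of all 12 libraries was in vector control replicate 3. STEAP4 had 24, 38 and 49 reads after overexpression and 36, 38 and 12 reads in the vector control, and its interval of the fold, 0.735 to 2.05, is wide (log2 fold change 0.29, edgeR adjusted p = 0.702). Without vector control replicate 3 it was -0.03 (adjusted p = 0.977).

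**Figure D3:**
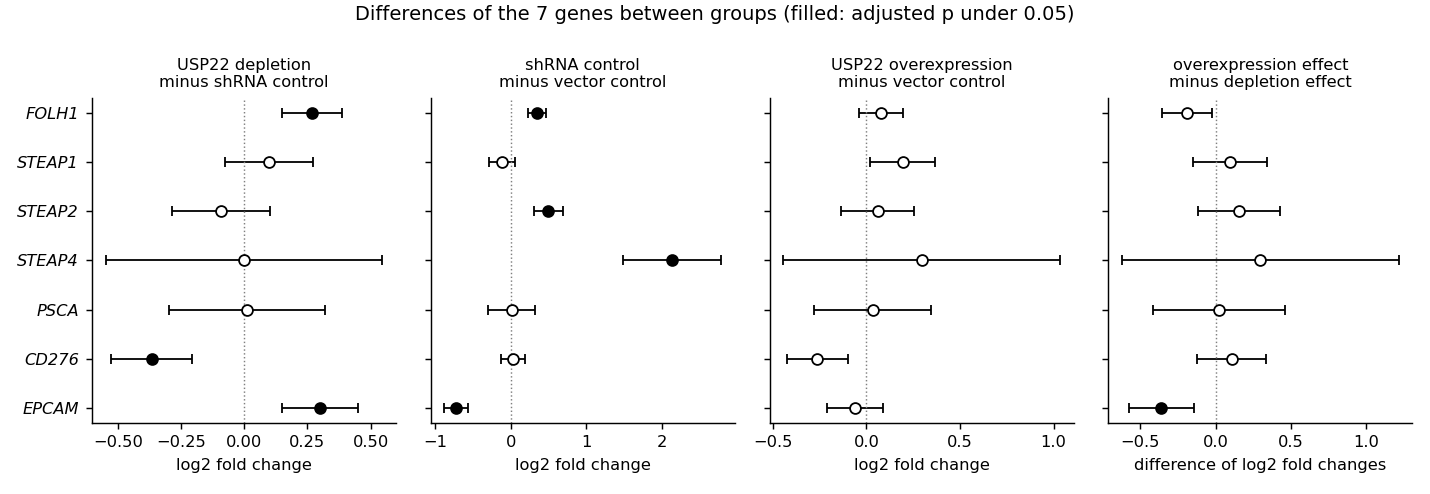
Log2 fold change of the 7 genes in the 3 comparisons, and the overexpression effect minus the depletion effect (right), with 95% intervals from edgeR. Filled points passed an adjusted p of 0.05, and the x axes differ between panels. From left to right, depletion has 3 filled points, the comparison of the control lines 4, overexpression 0 and the difference 1 (EPCAM).

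Whether a gene responded differently to raised and lowered USP22 was tested as the difference of both effects, which share no library. For EPCAM the overexpression effect was 0.36 log2 units below the depletion effect (SE 0.10, edgeR adjusted p = 0.0306). It was the 1 gene of 7 called, where 10.9% of all tested genes were called, 4.91% higher and 5.98% lower. The call ended in 9 of the 12 fits that leave out a library, with adjusted p up to 0.111, and the estimate stayed between -0.43 and -0.30 there. For FOLH1 the difference was -0.19 (adjusted p = 0.144), and it passed without vector control replicate 3 (-0.22, adjusted p = 0.0181). For CD276, STEAP1, STEAP2, PSCA and STEAP4 the differences, from 0.02 for PSCA to 0.30 for STEAP4, were not called.

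More genes were called between the control lines than in either USP22 comparison. The shRNA control and the vector control differ in construct and in doxycycline, and these cannot be told apart. This comparison shares the control libraries with both others. In it 4 of 7 antigen genes were called, where 43% of all tested genes were called, 21.7% higher and 21.3% lower. The same 4 did not overlap between the groups, 3 higher beside 25.6% of tested genes and 1 lower beside 24.2%.

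STEAP4 had the widest gap. It had 192, 124 and 163 reads in the shRNA control libraries, against 36, 38 and 12 reads in the vector control libraries, which is 1.446 to 1.724 CPM against 0.1691 to 0.4631 CPM. The groups did not overlap, and the level was 4.38-fold higher (log2 difference 2.13, SE 0.31, edgeR adjusted p = 3.02e-05, interval of the fold 2.79 to 6.87). Without vector control replicate 3, which has 12 reads, the log2 difference was 1.81 (adjusted p = 4.93e-06). The difference exceeded the 95th percentile over all tested genes, 1.40. The depleted libraries, with 97 to 193 reads, were near the shRNA control, and the overexpressing ones, with 24 to 49 reads, near the vector control. One basal marker, KRT14, was higher in the shRNA control, as STEAP4 was (log2 difference 2.54, edgeR adjusted p = 2.07e-09). The basal list of 4 summed to 3.628 to 4.032 CPM in the shRNA control and 0.8891 to 1.043 CPM in the vector control, mostly from KRT14, with KRT15 not called (-0.15, adjusted p = 0.796) and KRT5 and TP63 at or near 0. Luminal markers summed to 2561 to 2633 CPM in the shRNA control and 2304 to 2704 CPM in the vector control, fibroblast markers to 16.56 to 17.58 and 9.555 to 12.56 CPM, endothelial markers to 6.704 to 7.769 and 9.564 to 13.43 CPM, and leukocyte markers to 0.2099 to 0.2767 and 0.2925 to 0.4933 CPM. The part of these in the results was not tested.

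STEAP2 was 1.41-fold higher in the shRNA control (log2 difference 0.49, SE 0.09, edgeR adjusted p = 0.000334), and 0.36 without vector control replicate 3 (adjusted p = 1.46e-06). Its neighbour STEAP1 showed a log2 difference of -0.11 (adjusted p = 0.288), which became -0.22 and passed without that library (adjusted p = 0.00165). The antisense gene STEAP2-AS1 had 2.926 to 3.013 CPM in the shRNA control and 3.524 to 4.458 CPM in the vector control, the opposite direction to STEAP2 (log2 difference -0.39, edgeR adjusted p = 0.0116). Although the libraries are stranded, no source used here gives the strand setting of the counting, and reads of STEAP2 and STEAP2-AS1 may be mixed. CFAP69, the next gene after STEAP2, had a difference of 0.02 (adjusted p = 0.889).

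EPCAM was lower in the shRNA control, at 0.604 of the vector control level (log2 difference -0.73, SE 0.07, edgeR adjusted p = 5.52e-07). FOLH1 was 1.27-fold higher (0.35, SE 0.06, edgeR adjusted p = 8.72e-05). FOLH1 levels ordered from high to low as depleted cells, shRNA control, overexpressing cells and vector control. The shRNA control and the overexpressing cells were not tested against each other. CD276 and PSCA did not differ detectably between the control lines (log2 difference 0.03 and 0.01, edgeR adjusted p = 0.815 and 0.953), although CD276 passed without vector control replicate 3 (0.13, adjusted p = 0.0218).

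Close relatives did not follow the members as a block. FOLH1B, the near copy of FOLH1, had 9.11, 9.7 and 8.37 CPM after overexpression and 7.14, 6.12 and 6.16 CPM in the vector control. It rose 1.4-fold there (edgeR adjusted p = 0.00768), was lower in the shRNA control than in the vector control (log2 difference -0.65, adjusted p = 5.29e-05), where FOLH1 was higher, and had a log2 fold change of 0.28 on depletion (adjusted p = 0.0608). NAALAD2, another glutamate carboxypeptidase, rose 1.72-fold on overexpression (edgeR adjusted p = 0.000639), and had 0.31 on depletion (adjusted p = 0.0619). FOLH1B and NAALAD2 were the 2 of 4 glutamate carboxypeptidase relatives that edgeR called on overexpression, beside 1.51% of all tested genes called higher and 2.6% lower. On depletion edgeR called 1 of the 4 higher and 1 lower, beside 9.4% of all tested genes called higher and 10.4% lower. DESeq2 called 3 of the 4 higher on depletion, FOLH1B and NAALAD2 among them, and limma voom called 2 higher. NAALADL1 rose (0.88) and NAALADL2 fell (-0.30) on depletion, with edgeR adjusted p of 0.0302 and 0.0129. NAALADL1 had few reads, 38 to 59 per library after depletion and 22 to 34 in the shRNA control. After depletion both were near the vector control, NAALADL1 at 0.511 against 0.494 CPM and NAALADL2 at 162.2 against 158.5 CPM. STEAP3, the endosomal iron reductase, had 0.09 on depletion and -0.04 on overexpression (edgeR adjusted p = 0.548 and 0.861) but was lower in the shRNA control than in the vector control (-0.72, adjusted p = 3.37e-06). STEAP1B had 4 to 19 reads per library and was called in no comparison.

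Of the B7 relatives of CD276, 7 of 9 were tested. On depletion NCR3LG1 rose (log2 fold change 0.21, edgeR adjusted p = 0.0391) and VSIR fell (-0.88, adjusted p = 0.0267). The levels of both after depletion lay between those of the control lines. VSIR had 0.755 CPM after depletion, 1.388 CPM in the shRNA control and 0.112 CPM in the vector control. NCR3LG1 had 24.8, 21.5 and 26.5 CPM in the same order. On overexpression CD274, which encodes the checkpoint ligand PD-L1, rose 1.34-fold (edgeR adjusted p = 0.0233), to 3.33 CPM against 2.48 CPM in the vector control. CD274 differed more between the control lines, at 17.2 CPM in the shRNA control (6.92-fold, edgeR adjusted p = 7.74e-12). DESeq2 also called 1 of the 7 on overexpression and limma voom called 0. Of the Ly6 relatives of PSCA, 10 of 14 were tested, and LYPD6 fell on overexpression, to 0.41 ± 0.0284 CPM against 0.822 ± 0.141 CPM in the vector control (SD, n = 3 each, edgeR adjusted p = 0.0122). LYPD6 had few reads, 31 to 36 per library after overexpression and 56 to 76 in the vector control. On depletion edgeR called 0 of the 10 Ly6 genes, with 4 at an unadjusted p under 0.05, DESeq2 called 1 and limma voom 2. These B7 and Ly6 counts stand beside 9.4% of all tested genes called higher and 10.4% lower by edgeR on depletion. The shares on overexpression were 1.51% higher and 2.6% lower.

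Among 23 tested genes of other prostate cell-surface proteins, 6 fell and 1 rose on depletion, beside 10.4% of all tested genes called lower and 9.4% higher. On overexpression 2 fell and 1 rose, beside 2.6% called lower and 1.51% higher. TRPM8, a cold-gated cation channel, fell in both (log2 fold change -1.77 on depletion and -1.38 on overexpression), and so did SLC44A4, a choline transporter family member (-0.94 and -0.93). TMEFF2, a transmembrane protein with follistatin domains, rose in both (0.61 and 0.57). NECTIN4, an adhesion protein, fell on depletion (-0.70). Their edgeR adjusted p was at most 0.000177. The median of the list was -0.07 on depletion and -0.09 on overexpression.

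Of 19 EPCAM partners and proteases, 9 fell and none rose on depletion, where EPCAM rose and where 10.4% of all tested genes were called lower and 9.4% higher. They included FHL2, which binds the released EPCAM tail (-1.03), the transcription factor LEF1 (-0.67), the sheddase ADAM10 (-0.53) and the protease inhibitor SPINT1 (-0.31), with edgeR adjusted p of at most 0.01. On overexpression FHL2 (-0.73) and the protease ST14 (-0.40) fell (edgeR adjusted p = 0.00109 and 0.0388), beside 2.6% of all tested genes called lower. ST14 had 104.4 to 116.4 CPM after overexpression and 126.2 to 180.4 CPM in the vector control, the highest in replicate 3. Its value without that library was not examined. The medians of the list were -0.16 and -0.06.

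Of 19 tested iron and copper genes, whose substrates the STEAP reductases handle, 3 rose and 6 fell on depletion, beside 9.4% of all tested genes called higher and 10.4% lower. On overexpression 1 rose and 2 fell, beside 1.51% called higher and 2.6% lower. On depletion the transferrin receptor TFRC rose (0.24) and the copper importer SLC31A1 rose (0.29), while the metal importer SLC39A8 (-0.68) and HFE (-0.43) fell (edgeR adjusted p of at most 0.00458). TFRC stood at 561.8 CPM after depletion, between 477 CPM in the shRNA control and 886 CPM in the vector control. After depletion SLC31A1 lay above both control lines, and SLC39A8 and HFE lay below both. On overexpression SLC39A8 (-0.70) and the ferroxidase HEPH (-1.25) fell and HFE rose (0.36), with edgeR adjusted p of at most 0.0347. The medians of this list were 0.03 and -0.02. Of 5 tested folate genes, 1 was called on depletion, a share close to the 19.8% of all tested genes. GGH, which like FOLH1 removes glutamates from folates, was the gene called and rose (0.75, edgeR adjusted p = 4.95e-06). GGH stood at 24.93 CPM after depletion and 14.9 CPM in the shRNA control. The vector control had 25.35 CPM, so the level after depletion was near that of the vector control. The median of the folate list was 0.12. On overexpression edgeR called 0 of the 5, with 1 at an unadjusted p under 0.05, DESeq2 called 1 and limma voom 0, and the median was -0.12.

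**Figure D4:**
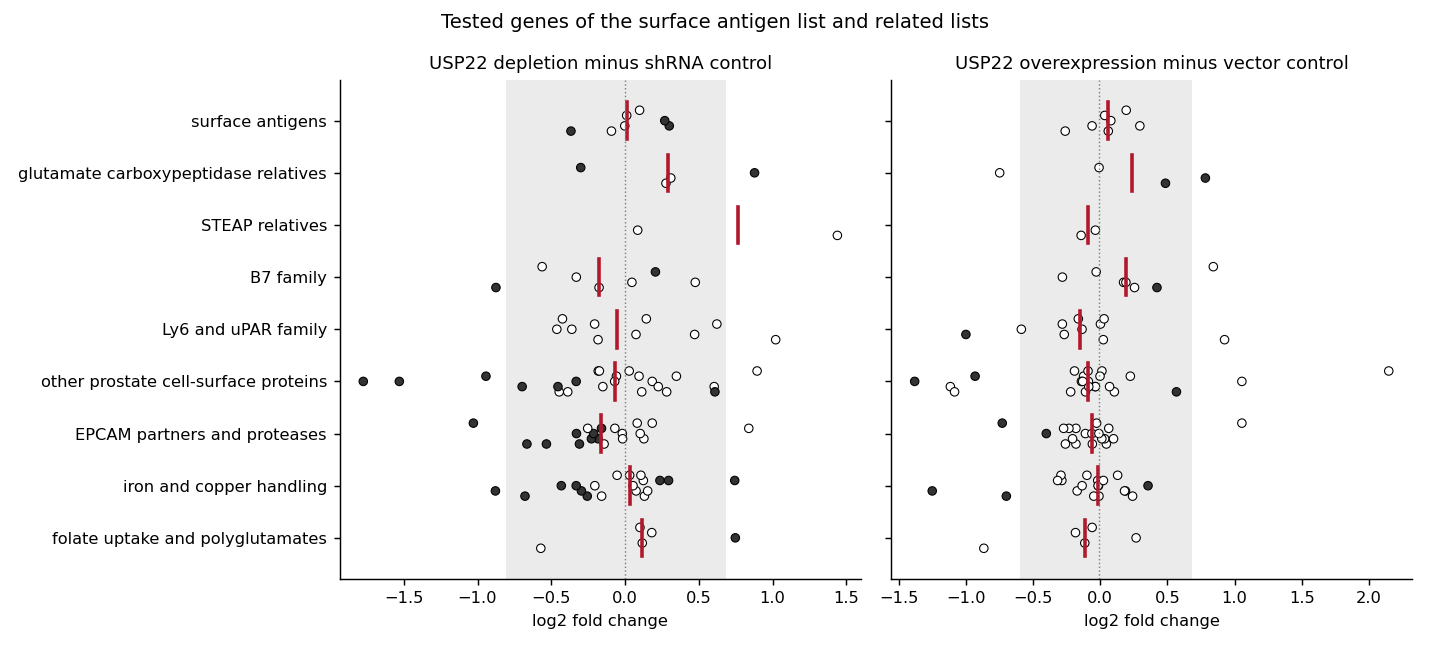
Log2 fold change of the tested genes of the antigen list and 8 related lists on USP22 depletion (left) and overexpression (right). Filled points passed an adjusted p of 0.05, red bars are list medians, and the grey band spans the 5th to 95th percentile of all tested genes. The 7 antigen genes lie within the band in both panels, and the EPCAM partners called on depletion all lie to the left of 0.

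The genes most like each member were found by the root mean square difference of log2 CPM over the 12 libraries, after subtracting each gene's mean, among 11169 genes. For FOLH1 they were SLC1A1 (0.06635), SCCPDH (0.06969) and TSPAN3 (0.06977), where the median gene lay 0.313 away. The closest to EPCAM were SET (0.0429), EIF2A (0.04325) and DDX21 (0.04545). The closest to CD276 were HMGXB3 (0.03493), BAIAP2 (0.03564) and NUMA1 (0.04155). For STEAP2 they were SH3GLB1 (0.03602), SOS2 (0.04261) and ZMYM5 (0.0445), and for STEAP1 they were SEC61G (0.04451), SHLD2 (0.04583) and THUMPD1 (0.04853). The genes nearest to STEAP4, KIAA0825, NEXMIF and IFI44, lay 0.402 to 0.419 away, where its own SD was 1.09. METTL25B, ENKD1 and RAB36 lay 0.102 to 0.108 from PSCA, whose own SD was 0.164. These distances share the same libraries and scaling.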

How the data were processed

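RNA of 12 LNCaP libraries was sequenced after a stranded total RNA preparation, per the labels' protocols. The authors deposited 1 table of raw read counts per Ensembl gene ID. Per the submitters' processing notes the tools were STAR 2.5.2a, featureCounts 1.5.0-p3 and DESeq2 1.14.1, and the build was hg19. Neither the annotation release nor the strand setting nor the treatment of multiply mapped reads was given in the sources used here, which can affect FOLH1 and FOLH1B, STEAP1 and STEAP1B, and genes with antisense partners. No gene coordinates in hg19 were used here.

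Groups and replicate numbers came from the sample titles, and table columns were matched to them by name (for overexpression, by a shortened title). The main analysis used edgeR 4.0.16 under R 4.3.3: filterByExpr by group, TMM, and glmQLFit and glmQLFTest on 1 joint model of the 4 groups (8 residual degrees of freedom). Adjusted p-values are Benjamini-Hochberg values over all 26076 genes tested, with a threshold of 0.05. Standard errors were derived from each estimate's F statistic, and 95% intervals use the degrees of freedom of the test. An exact permutation test of 3 against 3 libraries cannot go below p = 0.1, so none was used. RPKM divides CPM by the summed exon length of GENCODE 29 (GRCh38), matched by ID.

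Libraries held 77607469 to 103690001 reads, which fixes the counting error. No replicate pair agreed within sampling noise (lowest chi-square 6.77 per degree of freedom), so all libraries were kept as separate samples. The procedure was tested on simulated data with known changes. As alternatives, genes were left unfiltered or required to reach 1 CPM in 3 libraries, scaling was by RLE, the test was DESeq2 1.42.0 or limma 3.58.1 voom, and fits used only the libraries compared, a replicate block or all libraries but 1. The members and lists were chosen with earlier results of these data known. The text names all 7 members, USP22, the closest relatives, up to 4 called genes with the smallest p per list and comparison, the 3 genes most like each member by pattern (symbol, mean of at least 5 CPM), and, chosen after their values were seen, STEAP2-AS1, CFAP69, NCOA4, CD24 and the defining markers of cell types. Results of some listed genes are not reported here.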

Additional observations from a re-analysis of the deposited data

How the results depend on the processing

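The 3 antigen calls on USP22 depletion (FOLH1, EPCAM, CD276) and the 4 between the control lines (FOLH1, STEAP2, STEAP4, EPCAM) held, in the same directions, under all 19 alternatives. Without vector control replicate 3 the second count was 6, with STEAP1 and CD276 added, so it ranged from 4 to 6 over fits leaving out a library. On overexpression the antigen count was 2 with no filter on low counts (STEAP1 higher at 0.21, adjusted p = 0.0429, and CD276 lower at -0.24, adjusted p = 0.0219) and 1 by DESeq2 (CD276 at -0.26, adjusted p = 0.0258), and ranged from 0 to 1 when a library was left out. In the difference of effects it ranged from 0 to 3, with 3 without vector control replicate 3.

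Over all genes, the count called on overexpression was 1072, against 2062 with no filter on low counts, 1781 by DESeq2, 327 with only the libraries compared, and 501 to 1842 when a library was left out. On depletion it was 5172, against 8115 with only the libraries compared and 3523 to 8359 when a library was left out. For the difference of effects it was 2840, and 1909 to 5320 when a library was left out. For the control lines it was 11211, and 9444 to 12344 over all 19 alternatives, with 9514 the lowest when a library was left out. Among the fits leaving out a library, the highest counts on overexpression, on depletion and for the difference came without vector control replicate 3, and leaving out an overexpression library (replicate 1, 2 or 3) gave 539, 501 and 630 genes on overexpression. The cause was not tested.

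Values near 0 changed sign, and none was called with its sign reversed. STEAP4 on depletion was -0.00 and became 0.011 under RLE scaling, 0.024 with no filter, 0.0055 with at least 1 CPM in 3 libraries, 0.0099 by DESeq2 and 0.0030 with only the libraries compared. When a library was left out, it ranged from -0.15 to 0.20, PSCA from -0.085 to 0.23 on overexpression, -0.049 to 0.11 on depletion, -0.11 to 0.21 between control lines and -0.097 to 0.22 in the difference, CD276 from -0.034 to 0.13 between control lines, STEAP2 from -0.076 to 0.14 and STEAP4 from -0.029 to 0.54 on overexpression, and in the difference STEAP1 from -0.010 to 0.17 and STEAP4 from -0.028 to 0.54.

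Same-numbered libraries did not deviate together (correlations of -0.022 to 0.0827, with 3 of 6 libraries on overexpression, 4 of 6 on depletion and 2 of 6 between control lines correlating best with their own number). With a replicate block the counts were 1098, 5272, 11308 and 2959 genes on overexpression, on depletion, between the control lines and for the difference, and the same antigen genes were called. STEAP4 was limited by its 12 to 193 reads per library.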
